A study of Mus musculus with 27 samples.

Results

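Fatty acid oxidation was followed in these data through 30 genes, chosen by symbol as the enzymes, carriers and binding proteins of the pathway, out of 42375 gene symbols in the bulk count tables and 32245 in the single-cell matrices. All 30 were present in every table and all 30 passed the filter on low counts in each bulk comparison. By role they comprised 4 genes of fatty acid activation and binding, 6 of the carnitine shuttle, 4 acyl-CoA dehydrogenases, 3 genes of electron transfer to the respiratory chain, 5 of hydration, dehydrogenation and thiolysis, 4 auxiliary enzymes for unsaturated fatty acids and 4 of peroxisomal oxidation.

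RNA had been sequenced from 27 samples of mouse aorta and aortic cells, all with C57BL/6 as strain background and all after 28 days of angiotensin II (Ang II), a peptide hormone that constricts vessels and is infused to provoke hypertension with scarring around vessels. The study addresses KLF10 in CD4+ T cells, the cytokine IL-9 and perivascular fibrosis. The bulk libraries came from non-stripped aorta (3 TKO, 3 Cre), stripped aorta (2 TKO, 4 Cre), isolated aortic fibroblasts (3 TKO, 3 Cre), and non-stripped aorta of TKO mice that also received an anti-IL-9 antibody (2) or control IgG (3). In addition, 4 single-cell libraries of digested non-stripped aorta were made (2 TKO, 2 Cre). The labels give the genotypes only as TKO and Cre. From the study, TKO stands for Klf10 loss driven by Cre in T cells and Cre for the Cre-carrying controls. There was no group without Ang II. What was taken off the stripped aortas is not given in the labels, and the titles of those samples read nonstripped where the tissue labels, which were followed, say stripped.

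Fatty acid oxidation breaks fatty acids down inside mitochondria. A fatty acid is activated to an acyl-CoA, carried across the inner membrane as an acylcarnitine, and then shortened in rounds of dehydrogenation, hydration, a further dehydrogenation and thiolysis, with the electrons passed to the respiratory chain. Peroxisomes shorten very long and branched chains first. In and around the aorta, the pathway is best known from perivascular fat, above all brown fat, which burns fatty acids to make heat, and from striated muscle.

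The promoter windows of RefSeq (GRCm38.p6, 250 bases before to 50 after each gene's start) covered 25 of the 30 genes. Crat, Cpt1b, Acaa2, Decr1 and Hsd17b4 had none. The estrogen-related receptor element TNAAGGTCA and the PPAR-type repeat DR1, searched on both strands, were found in 0 of the 25 windows, against 1.43% and 0.451% of 27025 genes with a window. The shorter motif AGGTCA, which both longer motifs contain or overlap, was present in 4 of 25 (16.0%), in Cpt1a, Acadvl, Acadm and Echs1, against 18.1% of all genes. A match or its absence describes the letters of these windows only. Windows of 3 genes are shown because the results below return to them: Cpt1a (plus strand, chr19:3323051-3323350), the carnitine palmitoyltransferase found in most tissues, Acadm (minus strand, chr3:153944594-153944893), the medium-chain dehydrogenase, and Hadhb (plus strand, chr5:30155003-30155302), a subunit of the trifunctional protein. Capitals mark the reverse complement of AGGTCA in the windows of Cpt1a and Acadm, 94 and 249 bases before the start, and the 228 bases of the Hadhb window that are also inside the window of its partner Hadha.
Cpt1a: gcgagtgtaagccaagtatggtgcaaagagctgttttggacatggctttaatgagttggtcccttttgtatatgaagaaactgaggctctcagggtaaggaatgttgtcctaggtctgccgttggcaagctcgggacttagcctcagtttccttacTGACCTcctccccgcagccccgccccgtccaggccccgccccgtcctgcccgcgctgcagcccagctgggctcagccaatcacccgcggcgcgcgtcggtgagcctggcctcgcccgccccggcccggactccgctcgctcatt
Acadm: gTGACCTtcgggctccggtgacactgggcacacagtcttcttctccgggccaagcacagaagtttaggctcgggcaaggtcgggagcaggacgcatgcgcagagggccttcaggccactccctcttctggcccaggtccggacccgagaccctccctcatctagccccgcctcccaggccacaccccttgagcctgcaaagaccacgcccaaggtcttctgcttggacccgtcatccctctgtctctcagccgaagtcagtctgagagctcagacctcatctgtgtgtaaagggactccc
Hadhb: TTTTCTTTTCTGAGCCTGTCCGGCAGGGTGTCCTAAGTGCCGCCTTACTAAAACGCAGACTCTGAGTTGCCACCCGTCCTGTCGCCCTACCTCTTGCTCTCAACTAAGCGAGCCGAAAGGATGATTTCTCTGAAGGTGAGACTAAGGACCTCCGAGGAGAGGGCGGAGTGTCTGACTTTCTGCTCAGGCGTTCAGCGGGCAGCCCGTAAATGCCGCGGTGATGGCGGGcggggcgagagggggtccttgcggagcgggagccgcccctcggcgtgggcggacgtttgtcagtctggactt
Hadha (chr5:30118304-30155162, minus strand) and Hadhb (chr5:30155248-30184593, plus strand) lie head to head and encode the alpha and beta subunits of one enzyme complex. Their log2 fold changes in the 4 bulk comparisons were -0.09 and -0.08 in non-stripped aorta, 0.47 and 0.77 in stripped aorta, 0.03 and 0.03 in fibroblasts, and -0.69 and -0.59 after anti-IL-9. Neither gene passed the test in any of them.

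Bulk libraries held 17179257 to 38633457 counts. The 30 genes took 2.81%, 2.51% and 2.47% of counts in non-stripped TKO aorta and 3.00%, 2.76% and 2.74% in non-stripped Cre aorta, 0.380% and 0.429% in stripped TKO aorta and 0.191% to 0.276% in stripped Cre aorta, 0.108% to 0.114% in TKO fibroblasts and 0.110% to 0.115% in Cre fibroblasts. After anti-IL-9 the share was 1.01% and 1.47%, against 1.76% to 1.90% with IgG. Markers of fat were plentiful in non-stripped aorta, lower in stripped aorta and nearly absent in fibroblasts: Adipoq, the adipocyte hormone adiponectin, averaged 629.8 CPM (counts scaled to a common library total) in non-stripped TKO aorta, 335 CPM in stripped TKO aorta and 2.27 CPM in TKO fibroblasts. In bulk RNA, fewer cells of a type and less RNA per cell cannot be told apart. Klf10 had 822, 696 and 0 counts in non-stripped TKO aorta, against 1049, 943 and 1400 in non-stripped Cre aorta, and was present in every other bulk library, so the third non-stripped TKO library stands apart. The reason for its count of 0 was not tested, and results of that tissue are also given without this library. Il9 had 0 counts in every bulk library but 1, which had 1 count. The labels do not say whether samples of a group came from separate animals, so p-values measure the spread between these samples, part of which may be technical.

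The enzymes of the pathway were not expressed in the same proportions in the 3 preparations. Per kilobase of exon, the most abundant in non-stripped aorta were the long-chain dehydrogenase Acadl, at 1118 CPM per kb in TKO and 1407 in Cre aorta, and the thiolase Acaa2, at 927 and 1197. In fibroblasts the most abundant was Etfa, the alpha subunit of the electron transfer flavoprotein, at 50.8 CPM per kb in TKO and 51.6 in Cre cells, followed by the very-long-chain dehydrogenase Acadvl at 31.6 and 30.9. Hacl1, which removes a carbon from branched and hydroxylated fatty acids in peroxisomes, was among the least abundant everywhere, at 9.47 and 9.78 CPM per kb in non-stripped TKO and Cre aorta and 0.850 and 0.800 in TKO and Cre fibroblasts.

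The clearest difference between preparations was in the entry step, where carnitine palmitoyltransferase 1 joins the acyl group to carnitine. Its widely expressed form is Cpt1a (chr19:3322334-3385733, plus strand), and its muscle form, also used by brown fat, is Cpt1b (chr15:89416405-89425863, minus strand). In non-stripped aorta the muscle form was the higher, with 44.6 CPM per kb of Cpt1b and 5.08 of Cpt1a in TKO aorta, and 44.4 and 3.74 in Cre aorta. In stripped aorta the order was the opposite, with 1.29 CPM per kb of Cpt1b and 18.7 of Cpt1a in TKO aorta and 0.770 and 15.5 in Cre aorta. Fibroblasts had hardly any Cpt1b, at 0.184 CPM per kb beside 9.02 of Cpt1a in TKO cells and 0.242 beside 11.3 in Cre cells. In the fourth table the pair stood at 11.0 CPM per kb of Cpt1b and 11.2 of Cpt1a after anti-IL-9, against 22.3 and 6.55 with IgG. The tables were normalized separately, so levels are set side by side across them with no test. Cpt1b lies under the readthrough gene Gm44502 on the same strand, and how reads that fall on both were counted is not known.

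**Figure D1:**
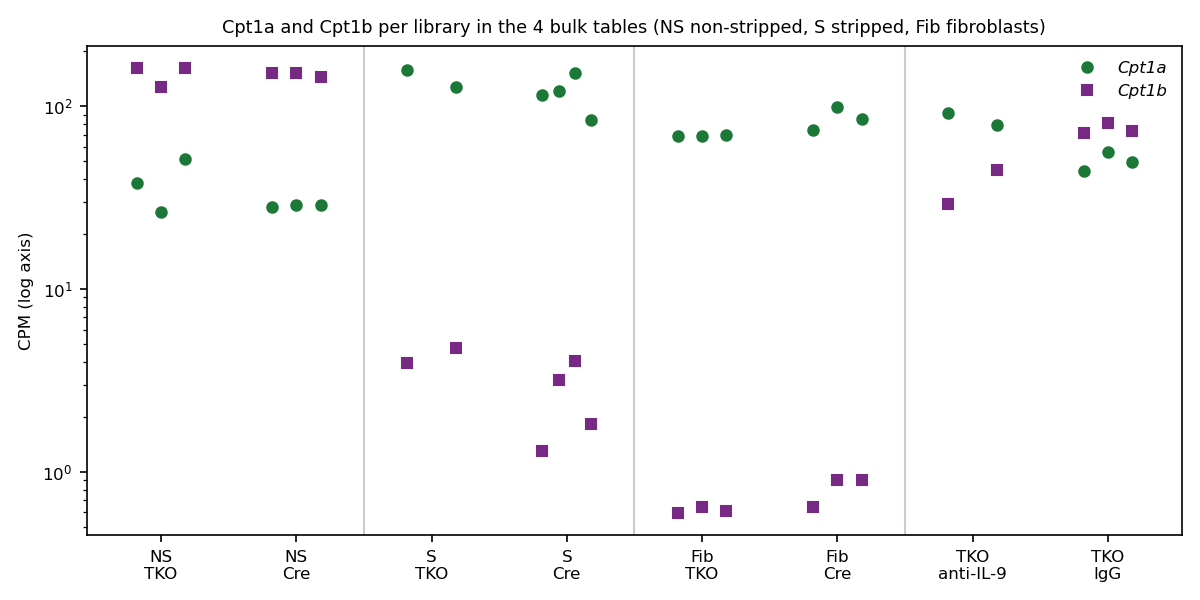
CPM of Cpt1a (circles) and Cpt1b (squares) in each of the 23 bulk libraries, on a log axis, with vertical lines between the 4 separately scaled tables. Cpt1b is above Cpt1a in every non-stripped TKO, Cre and IgG library and below it in every stripped, fibroblast and anti-IL-9 library. These CPM are not divided by exon length (7.64 kb for Cpt1a, 3.37 kb for Cpt1b), so the order per kilobase can differ.

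In non-stripped aorta, TKO was set against Cre to ask whether the pathway differs with the genotype in the vessel with its surroundings. None of the 30 genes passed the test (edgeR quasi-likelihood test with Benjamini-Hochberg adjustment over all 15162 genes tested, threshold 0.05), where 0.119% of all genes did. DESeq2 also called 0 of the 30 (its calls over all genes are given below), and 5 of the 30 had an unadjusted p under 0.05. For the bulk comparisons and their differences, the share of all genes at that unadjusted cut is not given here. The median log2 fold change of the 30 was -0.10 and that of all genes -0.02. Fold changes were positive for all 4 genes of activation and binding and negative for all 16 of the dehydrogenases, electron transfer, hydration and thiolysis, and the auxiliary enzymes. In 9 of 30 genes all TKO libraries were below all Cre libraries, and in 0 all were above, against 10.7% and 14.8% of all genes.

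The gene with the smallest p was Eci1, an isomerase that repositions double bonds of unsaturated acyl-CoAs, with 469, 442 and 389 CPM in TKO aorta and 629, 536 and 524 CPM in Cre aorta. The groups did not overlap, and its log2 fold change was -0.38 (SE 0.12, adjusted p = 0.163). Acaa2, the thiolase of the last step, had 1565, 1359 and 1292 CPM in TKO aorta against 1956, 1650.1 and 1839.6 CPM in Cre aorta, again without overlap, a log2 fold change of -0.37 (SE 0.13, adjusted p = 0.181). Etfb, the beta subunit of the electron transfer flavoprotein, had 327, 332 and 295 CPM in TKO aorta against 412, 372 and 374 CPM in Cre aorta, a log2 fold change of -0.28 (SE 0.10, adjusted p = 0.203). Acadl had a log2 fold change of -0.33 (SE 0.14, adjusted p = 0.262), Echs1, the short-chain enoyl-CoA hydratase, -0.22 (SE 0.10, adjusted p = 0.307), and Hadh, the hydroxyacyl-CoA dehydrogenase, -0.26 (SE 0.12, adjusted p = 0.313). None of these edgeR values passed the threshold.

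Cpt1a and Ehhadh stood on the positive side, each with 1 low TKO library. Ehhadh, the peroxisomal bifunctional enzyme, had 227, 103 and 309.9 CPM in TKO aorta and 130.0, 129.7 and 117 CPM in Cre aorta. Its second TKO library lay below all Cre libraries while the other two lay well above, for a log2 fold change of 0.77 (SE 0.33, adjusted p = 0.275). Without that library it passed the edgeR test (adjusted p = 0.0329). That pass follows from leaving out the TKO value that goes against the others, so it adds no support. Cpt1a had 38.2, 26.5 and 51.7 CPM in TKO aorta and 28.1, 28.9 and 28.8 CPM in Cre aorta, a log2 fold change of 0.44 (SE 0.21, adjusted p = 0.313). Without the third TKO library, which had no Klf10 count, edgeR called 0 of the 30, the median was -0.10 and the smallest adjusted p was 0.331. The 12 skeletal muscle markers summed to 5949, 5125 and 20683 CPM in TKO aorta and 491, 1773 and 923 CPM in Cre aorta, with all 12 higher in all TKO libraries and 0 called. Skeletal muscle also burns fatty acids. The part of these markers in the values of the pathway was not tested. White and brown adipocyte markers had median log2 fold changes of -0.14 each, and smooth muscle markers of -0.98.

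Stripped aorta gave the most uniform picture of the 3 genotype comparisons. The fold change was positive for 29 of 30 genes, and 25 of 30 had both TKO libraries above all 4 Cre libraries, against 12.0% of all genes. In 0 genes were both TKO libraries below all Cre libraries, against 11.6% of all genes. The median log2 fold change was 0.68 for the 30 and 0.00 for all genes. Even so none passed the edgeR test over 16688 genes, where 0.0240% of all genes did. Of the 30, 25 had an unadjusted p under 0.05, a count without the share of all genes beside it. DESeq2 called 18 of the 30, all of them higher, where it called 3.46% of all genes.

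In the carnitine shuttle, Cpt2, the inner-membrane enzyme that returns acylcarnitines to acyl-CoAs, had 71.4 and 64.1 CPM in TKO aorta against 41.4, 37.2, 38.0 and 41.0 CPM in Cre aorta. The groups were well apart, with a log2 fold change of 0.78 (SE 0.09, adjusted p = 0.0718), the smallest adjusted p of the pathway in this edgeR fit. Slc25a20, the carrier that moves acylcarnitines through the inner membrane, had 84.4 and 85.0 CPM in TKO aorta against 34.5, 52.3, 48.9 and 44.4 CPM in Cre aorta, a log2 fold change of 0.91 (SE 0.16, adjusted p = 0.123). Crat, which forms acetylcarnitine and so buffers acetyl-CoA, had 126 and 141 CPM in TKO aorta against 77.1, 80.8, 83.9 and 90.1 CPM in Cre aorta, a log2 fold change of 0.69 (SE 0.10, adjusted p = 0.101). Cpt2 and Crat had tight Cre libraries, Slc25a20 had a wider spread, and none of the 3 overlapped between groups. Slc22a5, the plasma membrane carnitine transporter, had a log2 fold change of 0.36 without overlap, whereas Cpt1a at 0.27 and Cpt1b at 0.74 overlapped between groups.

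Among the enzymes of the oxidation rounds, Acadvl had 139.9 and 169.5 CPM in TKO aorta against 82.5, 98.6, 90.6 and 90.6 CPM in Cre aorta, a log2 fold change of 0.77 (SE 0.11, adjusted p = 0.101). Acaa2 had 211 and 339 CPM in TKO aorta against 97.8, 136, 126 and 133 CPM in Cre aorta, a log2 fold change of 1.16 (SE 0.20, adjusted p = 0.138). Etfb had 80.5 and 135 CPM in TKO aorta against 37.1, 47.7, 45.1 and 63.4 CPM in Cre aorta, a log2 fold change of 1.15 (SE 0.25, adjusted p = 0.175). In both of the last named the second TKO library was far above the first, and both TKO libraries were above every Cre library. Ech1, which shifts the double bonds of dienoyl-CoAs, had a log2 fold change of 0.88 (SE 0.17, adjusted p = 0.154) and Etfa of 0.62 (SE 0.13, adjusted p = 0.179). All 16 genes of dehydrogenation, electron transfer, hydration and thiolysis and the auxiliary group were free of overlap, with log2 fold changes between 0.35 for Eci2, another enoyl-CoA isomerase, and 1.16 for Acaa2.

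The ends of the pathway were less even. Acsl1, the main acyl-CoA synthetase of fat and muscle, had 408 and 208 CPM in TKO aorta against 97.4, 145, 149 and 147 CPM in Cre aorta, a log2 fold change of 1.19 (SE 0.27, adjusted p = 0.191), the largest of the 30. Acsl3, a synthetase of the endoplasmic reticulum and lipid droplets, had 12.6 and 17.6 CPM in TKO aorta and 14.3, 19.2, 13.2 and 24.1 CPM in Cre aorta and was the only gene with a negative fold change, -0.23. Fabp3, the muscle fatty acid binding protein, had 37.2 and 44.5 CPM in TKO aorta and 6.66, 17.2, 46.9 and 31.3 CPM in Cre aorta. It overlapped between groups and was highest in the third Cre library, whose cardiac muscle markers summed to 5004 CPM against 75.2 to 896 CPM in the other 5 libraries. Acot2, a mitochondrial thioesterase, did not overlap, at 0.55. Of the peroxisomal genes, Ehhadh stood at 1.18 while Hacl1 at 0.46, the thiolase Acaa1a at 0.22 and Hsd17b4, the D-bifunctional protein, at 0.21 were smaller, and the last overlapped between groups. None of these 8 passed the edgeR test.

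**Figure D2:**
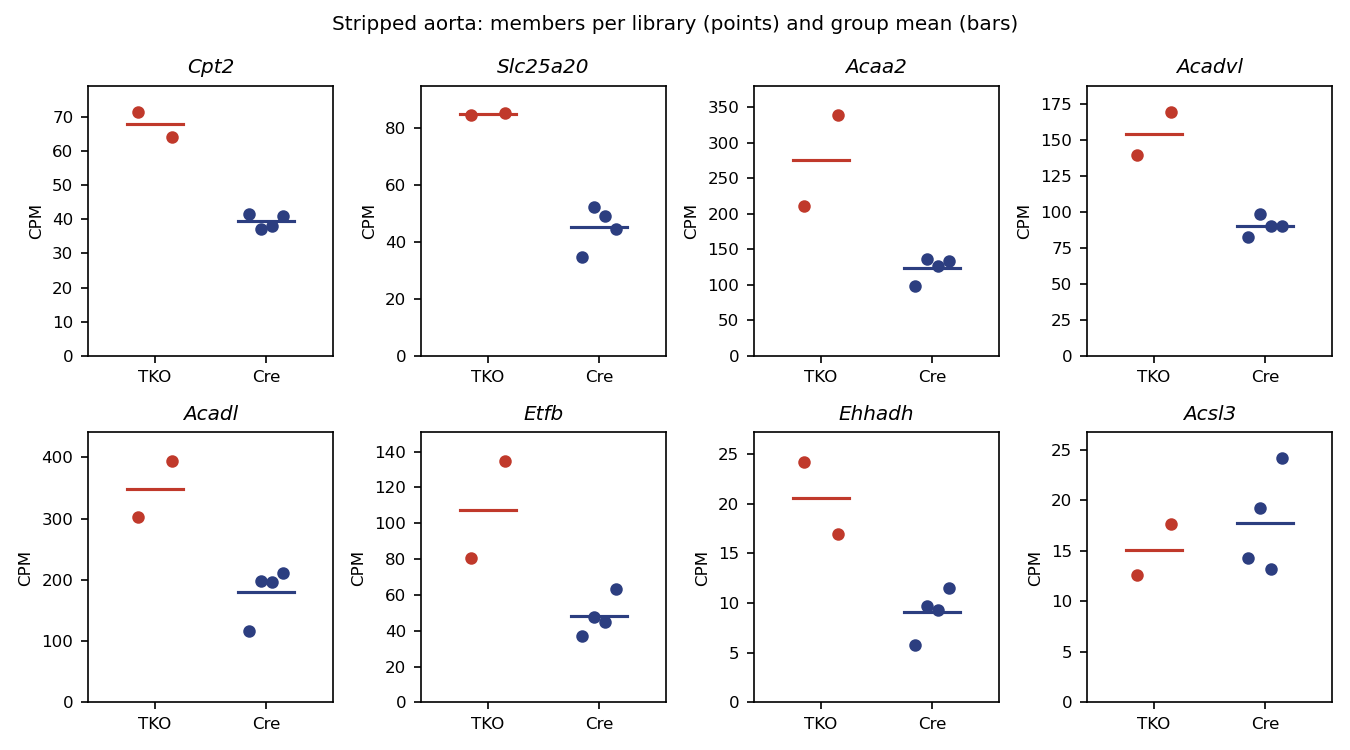
CPM of 8 pathway genes in stripped aorta, with 1 point per library and bars at the group means (2 TKO, 4 Cre). For 7 of the 8 genes both TKO points are above all Cre points, and for Acsl3 the groups overlap.

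The first Cre library had the lowest value of 23 of the 30 genes, and without it the median was 0.56 and edgeR called 0. Without the first or the second TKO library edgeR also called 0, in fits where the lone TKO library is assumed to vary like the Cre libraries. The 11 white adipocyte markers summed to 3351 and 1931 CPM in TKO aorta and 902, 1187, 1341 and 1677 CPM in Cre aorta, with all 11 fold changes positive and 0 called. The 10 brown adipocyte markers summed to 887 and 1229 CPM in TKO aorta and 600.3, 477, 637 and 562 CPM in Cre aorta, with 8 of 10 positive. Dio2, one of these markers and the leading gene of a fibroblast-like cluster in the single cells, went the other way, with 157 and 179 CPM in TKO aorta and 484, 177, 332 and 204 CPM in Cre aorta (log2 fold change -0.83 (SE 0.40, adjusted p = 0.412) in edgeR). Without it, a choice made after its values were seen, the other 9 summed to 730.3 and 1049 CPM in TKO aorta and 116, 299, 305 and 358 CPM in Cre aorta, with no overlap. Among the brown markers Ucp1, the heat-producing uncoupler of brown fat, had 364 and 401.7 CPM in TKO aorta and 21.9, 99.2, 109.6 and 97.3 CPM in Cre aorta, and Adipoq had 399 and 271 CPM in TKO aorta and 111, 161, 155 and 235 CPM in Cre aorta. The summed pathway over the summed white adipocyte markers was 1.14 and 2.21 in TKO aorta against 2.20, 2.15, 1.93 and 1.59 in Cre aorta, which overlapped. Over all 10 brown markers it was 4.29 and 3.47 in TKO aorta against 3.30, 5.35, 4.06 and 4.75 in Cre aorta, which also overlapped, and over the 9 without Dio2 it was 5.21 and 4.07 in TKO aorta against 17.0, 8.52, 8.47 and 7.46 in Cre aorta, lower in both TKO libraries. Mitochondrially encoded genes had a median log2 fold change of 0.49, with sums that overlapped between groups. The median was -0.58 for smooth muscle markers, -1.87 for mesothelial markers, 2.00 for B and plasma cell markers and 1.97 for T cell markers. T cell markers summed to 11.6 and 117 CPM in TKO aorta and 11.3, 9.94, 6.33 and 12.9 CPM in Cre aorta. The first TKO library thus lay within the Cre range, and only the second was above it. The part of these cells in the pathway's values was not tested.

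Genes around the pathway leaned the same way in stripped aorta, again with 0 called by edgeR. Of 19 genes of lipolysis, uptake and delivery, 18 had a positive fold change, with a median of 1.02. Pnpla2, the lipase that starts triglyceride breakdown, had 515 and 477 CPM in TKO aorta against 153, 201, 202 and 209 CPM in Cre aorta, a log2 fold change of 1.37 (SE 0.14, adjusted p = 0.0527). Of 24 regulators tested, 21 were positive with a median of 0.48, in a list that does not separate genes that raise oxidation from genes that lower it. Acacb at 1.05 (SE 0.15, adjusted p = 0.101) and Ucp2 at 0.91 (SE 0.14, adjusted p = 0.102) had the smallest p. Next was Esrra, which encodes an estrogen-related receptor that switches on oxidative genes. It had 37.0 and 38.2 CPM in TKO aorta against 26.2, 25.9, 26.6 and 27.3 CPM in Cre aorta and a log2 fold change of 0.50 (SE 0.08, adjusted p = 0.112). Of 34 other fatty acid oxidation enzymes tested, 27 were positive with a median of 0.30, led by Acaa1b, a peroxisomal thiolase, at 1.92 (SE 0.35, adjusted p = 0.138). In non-stripped aorta the same lists had medians of 0.00, 0.04 and 0.00 and also 0 called genes.

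The genotype effect itself differed between stripped and non-stripped aorta. In a joint fit of the 3 genotype tables, the stripped effect minus the non-stripped effect passed the edgeR test for 15 of 30 genes, all positive, against 2.53% of 18479 genes. The difference was positive for 28 of 30, with a median of 0.86. It was largest for Acaa2 at 1.56 (adjusted p = 0.0132), Etfb at 1.46 (adjusted p = 0.0178) and Acadl at 1.31 (adjusted p = 0.0258). The others past the edgeR threshold were Slc25a20, Cpt2 and Crat of the shuttle, Acadvl, Acadm and Acads of the dehydrogenases, Etfa, Echs1 and Hadh, and the auxiliary enzymes Ech1, Eci1 and Decr1, the dienoyl-CoA reductase. No gene of activation and binding and none of the peroxisome passed. The count was sensitive to single libraries: 0 passed without the first non-stripped Cre library (smallest adjusted p = 0.0505), 4 without the second stripped TKO library (which leaves 1 library in that group, assumed to vary like the others), and 7 without the third non-stripped TKO library, while the difference stayed positive for 28 or 29 of 30 genes in these fits. Over all genes these fits called 0.0594%, 0.337% and 0.510%. DESeq2 gave 20, where it called 7.05% of all genes. The tissue and its table cannot be told apart in this contrast.

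In isolated fibroblasts fold changes between genotypes were small and lay on both sides of 0. None of the 30 passed the edgeR test over 15673 genes, where 0.0638% of all genes did, 4 had an unadjusted p under 0.05, and the median log2 fold change was 0.01 for the 30 and for all genes alike. Of the 30, 16 were positive. All TKO libraries were above all Cre libraries in 2 genes and below them in 5, against 8.86% and 8.43% of all genes. DESeq2 also called 0 of the 30 (its calls over all genes are given below).

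Cpt1a had 68.8, 68.6 and 69.5 CPM in TKO fibroblasts against 74.5, 99.7 and 85.3 CPM in Cre fibroblasts. The TKO libraries lay within 1 CPM of one another and below every Cre library, for a log2 fold change of -0.33 (SE 0.10, adjusted p = 0.289) in edgeR. Slc22a5 had 12.7, 12.4 and 12.2 CPM in TKO fibroblasts against 10.3, 10.9 and 9.32 CPM in Cre fibroblasts, above in every library, with a log2 fold change of 0.29 (SE 0.11, adjusted p = 0.363). Acsl3 at -0.23 (SE 0.10, adjusted p = 0.401) and Acads, the short-chain dehydrogenase, at -0.21 (SE 0.09, adjusted p = 0.404) were lower in every TKO library in the same edgeR fit. Acot2 at -0.33, Echs1 at -0.12, Acaa1a at 0.11 and Cpt1b at -0.39 followed by p and did not pass, and Cpt1b was under 1 CPM in every library. Acadvl, the most abundant dehydrogenase per kilobase in these cells, had 88.5, 81.0 and 85.3 CPM in TKO fibroblasts and 87.7, 81.0 and 80.5 CPM in Cre fibroblasts, values that overlapped.

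Among the genes that feed fibroblasts with fatty acids, Lpl, the lipase that frees fatty acids from lipoproteins, had a log2 fold change of -0.62 (SE 0.13, adjusted p = 0.217), Plin2, a coat protein of lipid droplets, -0.68 (SE 0.16, adjusted p = 0.226) and Cd36, a fatty acid uptake receptor, -1.30 (SE 0.37, adjusted p = 0.273) in edgeR. Of 18 such genes tested 6 were positive and 0 called. Of the regulators, Ppard had -0.35 (SE 0.08, adjusted p = 0.223), Ucp2, an inner-membrane carrier, -1.39 (SE 0.35, adjusted p = 0.238) and Angptl4, a lipase inhibitor induced by fatty acids, -0.52 (SE 0.14, adjusted p = 0.261), with 0 of 23 called by edgeR. The genotype effect in fibroblasts differed from that in non-stripped aorta for 0 of 30 genes (0.141% of all genes, 4 with an unadjusted p under 0.05) and from that in stripped aorta for 0 of 30 (0.200% of all genes, 22 with an unadjusted p under 0.05, smallest adjusted p = 0.0555 for Crat in edgeR).

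**Figure D3:**
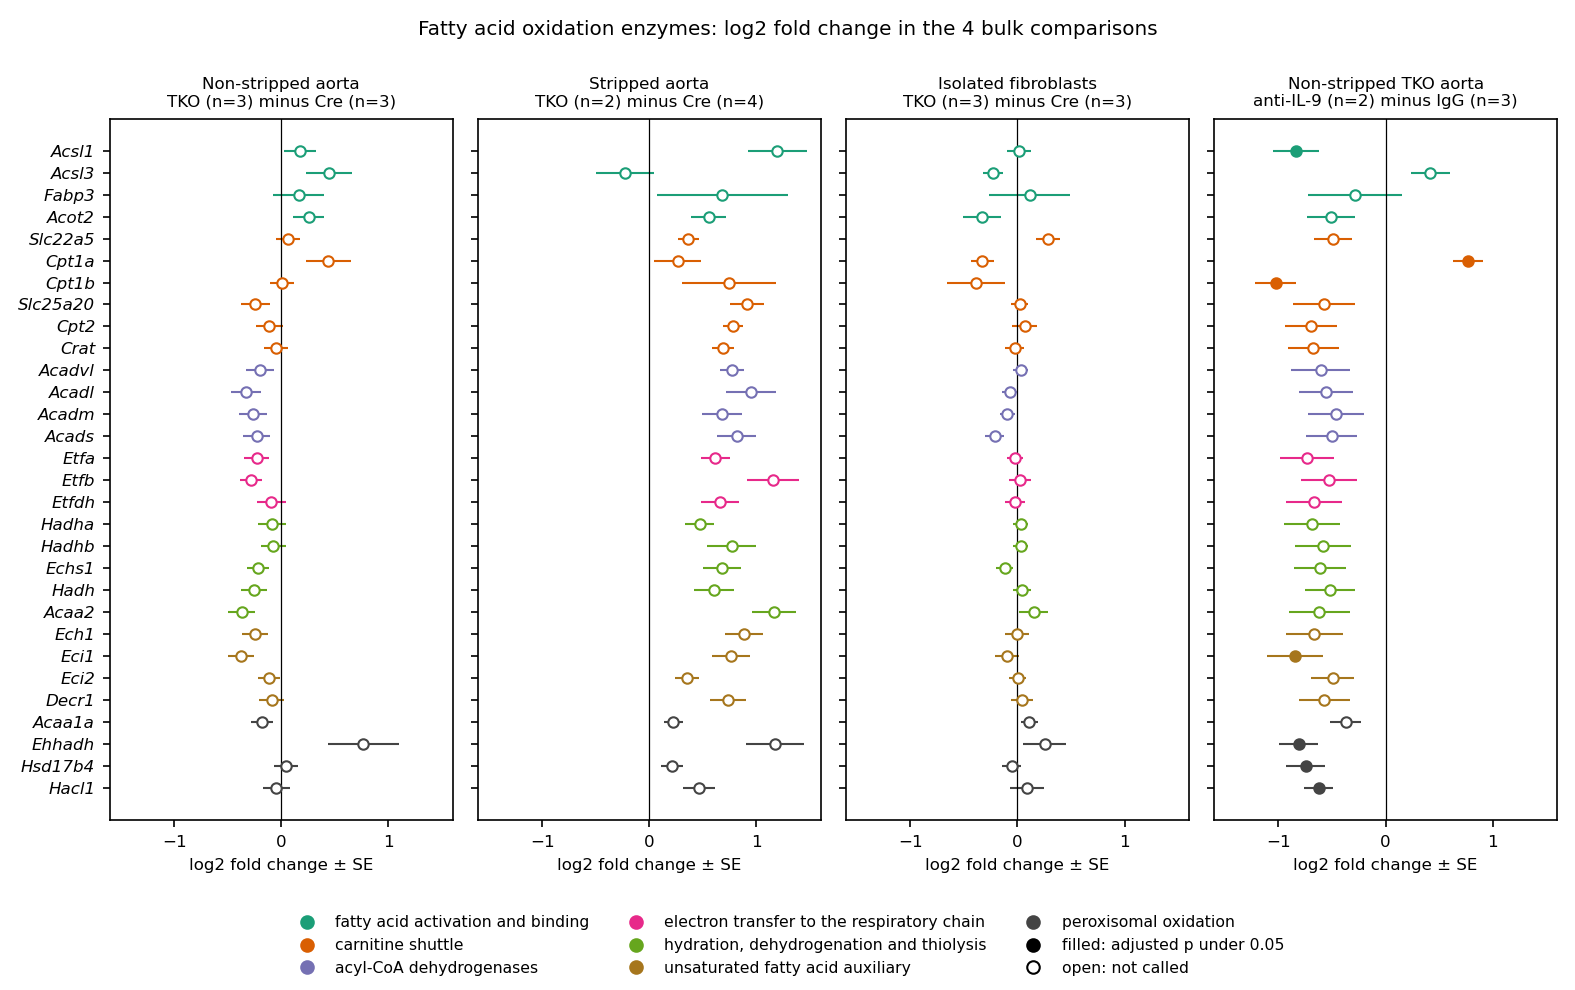
Log2 fold changes with standard errors of the 30 genes in the 4 bulk comparisons, coloured by role, filled where the edgeR adjusted p was under 0.05. In stripped aorta 29 of 30 points lie right of 0, in fibroblasts they gather around 0, and in the anti-IL-9 comparison Cpt1a and Acsl3 are the only points right of 0 among 28 to the left.

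Anti-IL-9 antibody in TKO mice was set against IgG to ask what blocking IL-9 does in the vessel with its surroundings. Here 7 of 30 genes passed the edgeR test, where 32.1% of 16463 genes did, so the share called was below that of all genes. Of the 7, 1 was higher and 6 were lower, where 21.0% of all genes were called higher and 11.0% lower. The muscle and general forms of carnitine palmitoyltransferase 1 moved in opposite directions: Cpt1a rose and Cpt1b fell. Of the peroxisomal genes 3 of 4 were called lower. The median log2 fold change was -0.59 for the 30 and -0.01 for all genes. Both anti-IL-9 libraries were below all IgG libraries in 25 genes and above them in 2, against 27.8% and 32.1% of all genes.

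Cpt1a had 91.9 and 78.9 CPM after anti-IL-9 against 44.4, 56.2 and 49.7 CPM with IgG, and Cpt1b had 29.1 and 44.8 CPM after anti-IL-9 against 71.3, 81.4 and 73.1 CPM with IgG. Neither overlapped between groups. In edgeR the log2 fold change of Cpt1a was 0.77 (SE 0.14, adjusted p = 0.00646) and that of Cpt1b -1.03 (SE 0.19, adjusted p = 0.00762). In counts, Cpt1b over Cpt1a was 0.317 and 0.568 after anti-IL-9, against 1.61, 1.45 and 1.47 with IgG. Both calls held in each alternative fit, with adjusted p between 4.13e-05 and 0.0435 for Cpt1a and between 9.79e-09 and 0.0299 for Cpt1b.

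Ehhadh had 63.0 and 77.1 CPM after anti-IL-9 against 146, 103 and 119.8 CPM with IgG, a log2 fold change of -0.81 (SE 0.18, adjusted p = 0.0153) in edgeR. Hsd17b4 had 141 and 195 CPM after anti-IL-9 against 275, 264 and 306.7 CPM with IgG, a log2 fold change of -0.75 (SE 0.18, adjusted p = 0.0199). Hacl1 had 20.8 and 24.6 CPM after anti-IL-9 against 32.1, 36.0 and 36.8 CPM with IgG, a log2 fold change of -0.62 (SE 0.13, adjusted p = 0.0125). These 3 peroxisomal genes were lower in both anti-IL-9 libraries, and the fourth, Acaa1a, was as well but did not pass at -0.37 (SE 0.15, adjusted p = 0.0961).

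Acsl1 had 858 and 1086 CPM after anti-IL-9 against 1969, 1518 and 1718 CPM with IgG, a log2 fold change of -0.84 (SE 0.22, adjusted p = 0.0255) in edgeR. Eci1 had 183 and 309 CPM after anti-IL-9 against 426, 382 and 519.9 CPM with IgG, a log2 fold change of -0.85 (SE 0.26, adjusted p = 0.0449). Both were apart from IgG in every library, and Eci1 had the wider spread between the anti-IL-9 libraries. Etfa was next by p, at -0.73 (SE 0.25, adjusted p = 0.0653) in edgeR, and did not pass. The mitochondrial dehydrogenases illustrate the spread behind this: Acadl had 864 and 1401 CPM after anti-IL-9 against 1576, 1597 and 1825 CPM with IgG, lower in both libraries, yet with a log2 fold change of -0.56 (SE 0.25, adjusted p = 0.135). All 4 dehydrogenases and all 5 genes of hydration and thiolysis lay below IgG in both libraries with 0 called.

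**Figure D4:**
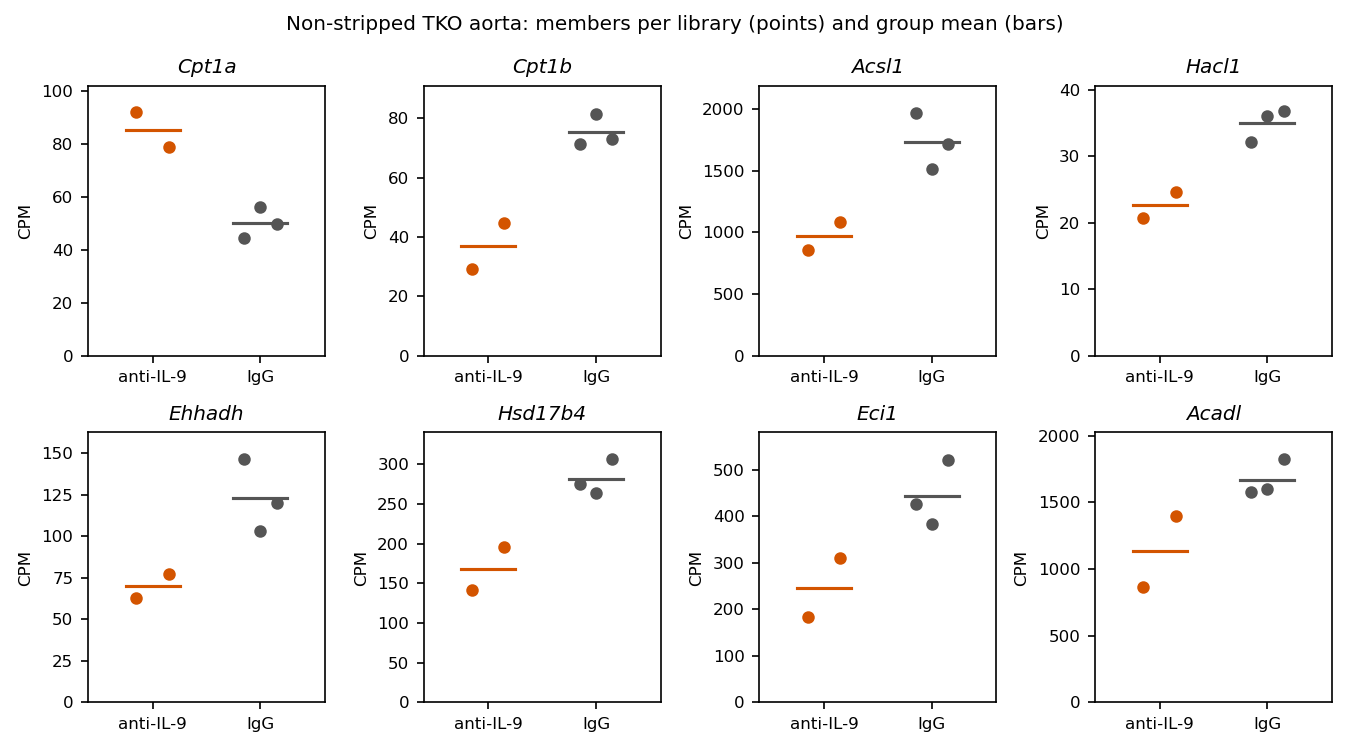
CPM of 8 pathway genes in non-stripped TKO aorta, with 1 point per library and bars at the group means (2 anti-IL-9, 3 IgG). Cpt1a is higher in both anti-IL-9 libraries, the other 7 are lower, and Acadl, the last panel, did not pass the test.

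The first anti-IL-9 library had the lowest value of 28 of the 30 genes. Without it edgeR called 2 genes, Cpt1a and Cpt1b, and 20.7% of all genes, and the median was -0.28. Without the second anti-IL-9 library it called 28 and 27.6% of all genes, and the median was -1.02. In both fits the lone anti-IL-9 library is assumed to vary like the IgG libraries. Without the third IgG library 4 were called, and 22.7% of all genes. White adipocyte markers summed to 4286 and 4707 CPM after anti-IL-9 and 10460.3, 7241 and 9098 CPM with IgG, with 8 of 11 called lower and 1 higher, and brown adipocyte markers to 3279 and 6673 CPM and 6725, 7161 and 8220.0 CPM, with 2 of 10 called lower. Skeletal muscle markers summed to 317 and 243 CPM after anti-IL-9 and 55.1, 12.3 and 25.0 CPM with IgG (11 of 12 called higher), smooth muscle markers to 1425 and 1394 CPM and 787, 551 and 458 CPM (6 of 8 higher), fibroblast markers to 2324 and 1824 CPM and 6098, 8468 and 4269 CPM (7 of 8 lower) and mesothelial markers to 9.52 and 8.46 CPM and 144, 142 and 327 CPM (8 of 8 lower). Endothelial markers summed to 519 and 662 CPM after anti-IL-9 and 1194, 1013 and 1033 CPM with IgG (6 of 8 lower), and T cell markers to 62.6 and 7.48 CPM and 9.06, 5.61 and 4.82 CPM (2 of 8 higher). The part of these cells in the pathway's values was not tested.

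Around the pathway, anti-IL-9 aorta showed changes in both directions. Of 35 other fatty acid oxidation enzymes 3 were called higher and 13 lower by edgeR. Acsl6, an acyl-CoA synthetase known from brain, had 20.1 and 15.8 CPM after anti-IL-9 against 3.76, 3.38 and 3.19 CPM with IgG, a log2 fold change of 2.38 (SE 0.19, adjusted p = 0.000199). Cpt1c, the neuronal relative of Cpt1a, had 34.6 and 33.6 CPM after anti-IL-9 against 9.86, 16.5 and 11.8 CPM with IgG, a log2 fold change of 1.42 (SE 0.21, adjusted p = 0.00263). Acaa1b fell, at -0.93 (SE 0.14, adjusted p = 0.00279). Of 19 genes of lipolysis, uptake and delivery 1 was called higher, the fatty acid transporter Slc27a4 at 0.75 (SE 0.12, adjusted p = 0.00383), and 9 lower, among them Abhd5, the activator of triglyceride lipase, at -0.89 (SE 0.14, adjusted p = 0.00334) and the lipid droplet protein Plin4 at -1.10 (SE 0.19, adjusted p = 0.00533). Of 25 regulators 2 were called higher and 10 lower by edgeR. Prkaa2, a catalytic subunit of AMP-activated kinase, rose at 0.76 (SE 0.13, adjusted p = 0.00431), and Angptl4 at -1.01 (SE 0.16, adjusted p = 0.00354) and the uncoupler Ucp3 at -0.87 (SE 0.15, adjusted p = 0.00436) fell.

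In single cells, the level of the 30 genes was highest in 1 small group of cells. A cluster of 164 cells (32 and 51 from TKO libraries, 22 and 59 from Cre libraries) had 5 of 7 adipocyte markers raised, with Adipoq and Cidec among its 10 leading genes, and was called adipocyte-like. Its summed level of the 30 genes was 4341 and 12108 CPM in the TKO libraries and 6385 and 15688 CPM in the Cre libraries (here relative to the UMIs of the class). The next class, mesothelial-like cells, averaged 1399 CPM, pericyte-like cells 1318 CPM, fibroblast-like cells 1075 CPM and plasma cell-like cells, the lowest, 553 CPM. These levels describe clusters built from the other genes of the same cells and carry no test. Keeping only cells with at most 10% mitochondrial UMIs brought the adipocyte-like mean to 4964 CPM, still above every other class.

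Of the 30 genes, 28 had their highest class mean in adipocyte-like cells, 22 of them in all 4 libraries. Acadl averaged 1007 ± 562 CPM there (SD, n = 4 libraries), with cycling cells next at 98.5 ± 3.60 CPM. Cpt2 averaged 189 ± 139 CPM, with Schwann-like cells next at 14.9 ± 11.8 CPM. Cpt1b was higher in this cluster than in any other class: 10.8 and 128 CPM in the TKO libraries and 13.0 and 191 CPM in the Cre libraries (1 and 16 UMIs in TKO, 2 and 32 in Cre), with a UMI in 19.5% of its cells and in at most 0.801% of the cells of any other named class. As a measure of free RNA, Adipoq had a UMI in 79.9% of adipocyte-like cells and in 0% to 1.21% of the cells of other named classes. The median depth was 2564 UMIs in adipocyte-like cells and 1450 to 3059 UMIs in the other named classes.

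Cpt1a and Acsl3 were the exceptions. Cpt1a averaged 21.8 ± 8.33 CPM in adipocyte-like cells but 88.5 ± 21.0 CPM in mesothelial-like and 86.2 ± 19.9 CPM in macrophage-like cells, means that did not differ beyond their spread. Acsl3 was highest in Schwann-like cells at 30.2 ± 12.0 CPM, with macrophage-like cells at 25.1 ± 3.55 CPM within the spread. Outside fat, Slc25a20 was high in dendritic cell-like cells at 98.5 ± 59.9 CPM, and there it was uneven: a cluster led by Xcr1 and Clec9a had 114 and 125 CPM in the TKO libraries and 199 and 78.1 CPM in the Cre libraries, while a cluster led by Ccl22 and Fscn1 had 19.9 and 14.1 CPM in the TKO libraries and 30.4 and 4.81 CPM in the Cre libraries. The latter cluster held 444 and 39 TKO cells and 27 and 102 Cre cells. Outside its first TKO library the values rest on few UMIs. Ech1 in pericyte-like cells reached 133 ± 22.8 CPM, and Fabp3 in mesothelial-like cells varied widely, with 4.32 and 53.5 CPM in the TKO libraries and 39.4 and 117 CPM in the Cre libraries.

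**Figure D5:**
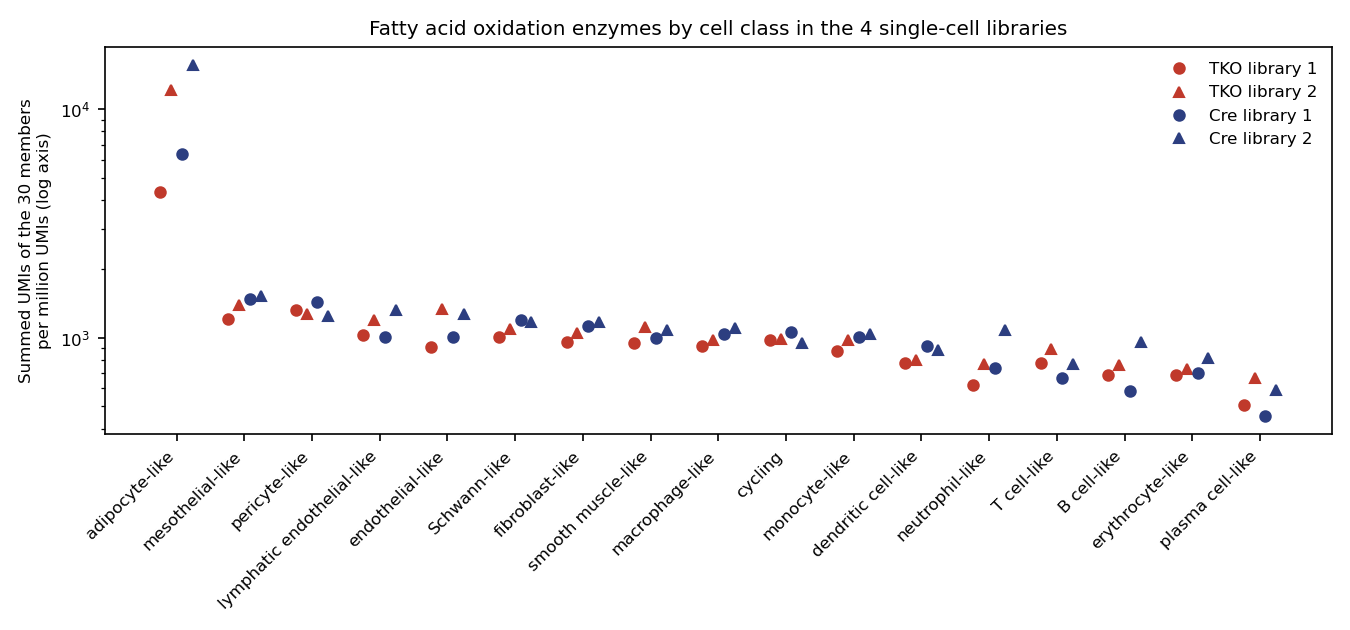
Summed CPM of the 30 genes relative to the UMIs of the class (log axis) in the 17 cell classes tested, with 1 point per library (2 TKO, 2 Cre). Adipocyte-like cells lie between 4341 and 15688, above all points of every other class, and within them both second libraries lie above both first libraries.

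Within adipocyte-like cells the libraries of 1 genotype differed from each other more than the genotypes did. In 27 of 30 genes both second libraries were above both first libraries, and in 1 gene, Etfdh, the dehydrogenase that hands electrons from the flavoprotein to ubiquinone, both Cre libraries were above both TKO libraries. The same counts over all genes are not given here. Over 1996 genes of these cells, the log2 difference of the first from the second TKO library correlated at 0.486 with that between the Cre libraries. This was the highest value of the classes tested, so the split cannot be read as particular to the pathway. Acadl had 366 and 1331 CPM in the TKO libraries and 727 and 1602 CPM in the Cre libraries. Ucp1 split the same way, with 21.5 and 1131 CPM in the TKO libraries and 123 and 2308 CPM in the Cre libraries, whereas Adipoq did not, with 1422 and 1756 CPM in the TKO libraries and 1552 and 1291 CPM in the Cre libraries. The median mitochondrial share of UMIs in these cells was 7.77% and 12.5% in the TKO libraries and 8.99% and 16.4% in the Cre libraries. Adipocyte-like cells made up 0.206% and 0.652% of TKO cells and 0.143% and 0.624% of Cre cells, and gave 1.57% and 11.0% of all UMIs of the 30 genes in the TKO libraries and 1.96% and 12.4% in the Cre libraries. Per the labels, libraries were sequenced in pairs, without saying which. The part of brown fat cells, the mitochondrial share and the sequencing pairs in these levels was not tested.

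Genotype was tested on summed counts per library in 17 classes with at least 20 cells in each library. None of 354 tests of a pathway gene in a class passed the edgeR threshold, where 0.0620% of 122600 tests over all genes did, and 6 had an unadjusted p under 0.05. These were Etfa in T cell-like cells at 0.78 (SE 0.34, adjusted p = 0.813), Etfdh in cycling cells at -1.31 (SE 0.48, adjusted p = 1), Acadl in erythrocyte-like cells at -0.74 (SE 0.33, adjusted p = 1), Cpt1a in macrophage-like cells at -0.57 (SE 0.21, adjusted p = 1), Etfb in monocyte-like cells at -0.64 (SE 0.28, adjusted p = 1) and Acaa2 in plasma cell-like cells at 1.88 (SE 0.62, adjusted p = 0.571), as log2 fold changes of TKO over Cre. At that unadjusted cut, all genes gave 380 of 7036 in T cell-like cells and 239 of 8657 in cycling cells. They gave 266 of 8499 in erythrocyte-like cells and 469 of 11076 in macrophage-like cells. For monocyte-like cells the count was 350 of 8808 and for plasma cell-like cells 218 of 4347. Each of these classes had 1 such pathway gene, of 19, 24, 24, 28, 26 and 11 tested. In adipocyte-like cells 0 of 25 genes tested had a positive fold change, the median was -0.48 beside -0.05 for all genes, and the smallest p belonged to Etfdh at -1.17 (SE 0.61, adjusted p = 0.999) and Cpt2 at -1.06 (SE 0.67, adjusted p = 0.999). These directions rested on single libraries: without the second Cre library 20 of 25 genes were positive, with a median of 0.43 and Cpt2 at 0.21 (adjusted p = 0.999 in edgeR), and without the first TKO library 14 of 26 were positive, with a median of 0.03. Without the first Cre library Cpt2 stood at -1.71. In fibroblast-like cells 6 of 30 were positive with a median of -0.19, and Cpt2 led at -0.60 (SE 0.27, adjusted p = 0.993). Without the first Cre library 2 edgeR tests passed, Acaa2 in fibroblast-like cells at -1.13 (adjusted p = 0.0367) and Fabp3 in mesothelial-like cells at -1.97 (adjusted p = 0.0086). Without the second TKO library 1 passed, Fabp3 in adipocyte-like cells, which had 0 UMIs in the remaining TKO library and 0 and 50 UMIs in the Cre libraries. In all of these fits the lone library of a genotype is assumed to vary like the pair of the other. With 2 libraries per genotype these edgeR tests leave wide errors, and classes differ in which clusters each library fills: 1 B cell-like cluster came almost wholly from the first Cre library (1461 of 1478 cells).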

How the data were processed

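For bulk RNA the authors deposited unnormalized read counts for each gene symbol. Per the submitters' processing notes, GRCm38 was the build, and the tools listed are STAR 2.5.2b, Trimmomatic 0.36 and featureCounts of Subread 1.5.2. Strand setting and annotation are not given in the sources used here, so how reads of overlapping genes were counted is not known. The single-cell files hold deposited UMI counts. Groups follow the genotype, treatment and tissue labels. Titles of the stripped samples read nonstripped, and the tissue field was followed. Of the columns, 1 mapped to no label and was not used. A nameless row, with at most 0.0025% of counts, was left out.

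The members, gene lists, markers and tests were chosen with earlier results of these data known. Each table was filtered with filterByExpr (minimum count 10), scaled by TMM and tested by quasi-likelihood in edgeR 4.0.16 (R 4.3.3, limma 3.58.1), with p-values adjusted over all genes after Benjamini and Hochberg and a threshold of 0.05. CPM use TMM library sizes. Every adjusted p is from edgeR unless DESeq2 1.42.0 is named. Differences between tissues came from a joint fit of 18 genotype libraries. Fold changes put TKO over Cre and anti-IL-9 over IgG. Named genes were those past the threshold, or otherwise the 8 with the smallest p (2 per cell class, of which some are given as counts), and up to 3 per further list, of which 1 is not reported here. Acadl, Acsl1, Acsl3 and others named beside them were added after their values were seen. Gene positions and exon lengths are from GENCODE vM21 (GRCm38).

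Cells needed at least 500 genes, 1000 UMIs and at most 20% mitochondrial UMIs. This kept 15897 and 8029 TKO cells and 15843 and 9712 Cre cells, of medians 1580 and 1392 UMIs and 2626 and 1616 UMIs, and libraries shared 19 to 71 kept barcodes. Scrublet's automatic threshold marked 0 doublets, so cells with a score above 0.2 (2.49% to 2.75%) were removed, a choice made after seeing the data. Cells were clustered (scanpy 1.11.5, leidenalg 0.10.2) without the pathway genes, and clusters named from marker lists. The fits were tested on simulated data.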

Additional observations from a re-analysis of the deposited data

Results flagged for a closer look

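In stripped aorta, the first Cre library lay apart from the other 3 for 5 of the 30 genes, with a gap to its nearest neighbour that took more of the group's range than Dixon's 95% critical value for 4 samples allows. That share of the range was 0.927 for Acsl1, 0.896 for Hadhb, 0.877 for Etfdh, 0.849 for Acadl and 0.838 for Etfa, always with that library lowest. Chance flags about 1 group in 20, and genes measured in the same libraries are not independent. The same library had the lowest white adipocyte marker sum of the 6, 902 CPM, and the lowest smooth muscle marker sum of the 4 Cre libraries, 6548 CPM. Its endothelial marker sum, 253 CPM, was also the lowest of the 6, and its fibroblast marker sum, 41975 CPM, the highest of the 4 Cre libraries. Its brown adipocyte marker sum, 600 CPM, was not the lowest, but without Dio2 it was, at 116 CPM.

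The genotype effect differed between stripped and non-stripped aorta for 15 genes by a test of the difference itself. As given above, that count was sensitive to single libraries, and the tissue and its table cannot be told apart. In the joint edgeR fit the stripped effect exceeded the non-stripped effect, on the log2 scale, by 1.56 for Acaa2, 1.46 for Etfb, 1.31 for Acadl, 1.19 for Slc25a20, 1.17 for Eci1, 1.16 for Ech1, 1.07 for Acads and 1.00 for Acadvl. The remaining differences were 0.98 for Acadm, 0.93 for Echs1, 0.92 for Cpt2, 0.89 for Hadh, 0.88 for Etfa, 0.85 for Decr1 and 0.77 for Crat, with adjusted p of 0.0132 to 0.0422 over the 15. For Eci1, as an example, the effect in stripped aorta was 0.76 with both TKO libraries above all Cre libraries, and that in non-stripped aorta -0.38.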

How the results depend on the processing

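Counts of called genes of the pathway moved with the test more than directions did. In stripped aorta edgeR called 0 genes (0.0240% of all genes), DESeq2 18 (3.46%), a fit without the count filter 5 (0.251%) and a joint fit over all bulk libraries gave 12 (2.00%). After anti-IL-9 the count was 7 (32.1%), and 18 with DESeq2 (34.8%), 26 without the count filter (24.6%), 13 with upper quartile scaling (35.0%, which moved the median of all genes to -0.13) and 23 in the joint fit (34.3%), and every alternative fit on all libraries kept the 7 calls. Leaving out 1 library gave 2 to 28 calls after anti-IL-9 with medians of -0.28 to -1.02, 0 to 1 in non-stripped aorta and 0 to 17 for the difference between stripped and non-stripped aorta. The shares of all genes in the fits that gave 1 and 17 calls are not given here. Over all genes, DESeq2 and edgeR called 796 and 18 in non-stripped aorta, 577 and 4 in stripped aorta, 417 and 10 in fibroblasts and 1303 and 468 for the difference. In single cells, fits with the replicate block called 1 test (Fabp3 in mesothelial-like cells at -1.52, adjusted p = 0.0414 in edgeR, against 0 without the block). The labels do not say what a replicate number marks, and there are 2 pairs only. Over genes, the log2 difference of the first from the second TKO library was correlated with the same difference between the Cre libraries. That correlation was -0.04 to 0.49 over the classes. Leaving out 1 single-cell library gave 0 to 2 calls, and put the log2 fold change of Cpt2 in adipocyte-like cells between -1.71 without the first Cre library and 0.21 without the second, a reversal. Among named genes 685 values kept their direction and side of the threshold, 26 passed it newly, 61 no longer passed and 1 reversed. The causes were not tested. Searched alone, AGGTCA matched 4 promoters. Libraries of 17179257 counts or more left no gene of the pathway under the filter, but Cpt1b in fibroblasts stayed under 1 CPM.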

Other observations

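Genes that make fatty acids, and Bdh1 of ketone body metabolism, were measured in the same libraries. After anti-IL-9, 6 of 11 genes of fatty acid synthesis were called lower and 1 higher by edgeR: Mlxipl, a glucose-sensing activator of fat synthesis, averaged 181 CPM after anti-IL-9 against 356 CPM with IgG (log2 fold change -0.97, adjusted p = 0.00184), while the desaturase Scd2 averaged 484 CPM after anti-IL-9 against 156 CPM with IgG (log2 fold change 1.63, adjusted p = 0.000351). Bdh1, which interconverts the ketone bodies, had 14.4 and 15.1 CPM after anti-IL-9 against 4.08, 4.73 and 5.20 CPM with IgG, a log2 fold change of 1.66 (SE 0.18, adjusted p = 0.000588) in edgeR.

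In non-stripped aorta, where the enzymes of the oxidation rounds had negative fold changes, the desaturase Scd1 averaged 15848 CPM in TKO aorta against 10088 CPM in Cre aorta, a log2 fold change of 0.65 (SE 0.17, adjusted p = 0.106) in edgeR that did not pass. Bdh1 had 4.47, 6.40 and 33.7 CPM in TKO aorta against 2.29, 3.56 and 3.28 CPM in Cre aorta, a log2 fold change of 2.29 (SE 0.72, adjusted p = 0.16), and the highest of its TKO values was in the library with the highest skeletal muscle marker sum. That library's part in the value was not tested.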
